A study of Mus musculus with 2 samples.

Results

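The G2/M and mitosis genes are 41 named mouse genes whose products carry a cell from the end of DNA replication through chromosome segregation to cytokinesis. They were chosen by name, and all 41 were found among the 34490 genes of the count table that were paired with a symbol, out of 35275 genes in all. RNAseq was performed on AML12 cells, a non-transformed hepatocyte line whose labels give a CD-1 male liver donor of 3 months and which carries a transgene for transforming growth factor alpha. The control group was untreated, and the senescent group was exposed to hydrogen peroxide on 6 days for 1 h each, first to 1 mM and from the next day to 0.75 mM, recovered for 23 h between exposures, and was then re-seeded. RNA of 3 samples per group was pooled into 1 library, so no comparison between the groups has a replicate check, no test was made and no p-value is given. Since the RNA came from whole cultures, fewer dividing cells and less RNA per dividing cell cannot be told apart.

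Entry into mitosis is driven by the kinase Cdk1 with its A-type and B-type cyclins, and the spindle assembly checkpoint then holds the cell until every kinetochore is attached to microtubules. The anaphase promoting complex, a ubiquitin ligase with Cdc20 as its activator, ends that wait by marking securin and cyclin B for degradation, after which the central spindle and a contractile ring divide the cell. RNA of these genes is low in resting cells and is made mainly in G2 under B-Myb, FoxM1 and the MuvB complex, and the differentiated liver holds few dividing cells, while a hepatocyte line in culture divides. A lasting exit from the cell cycle is part of the definition of senescence.

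The control library held 28021941 reads in 17403 genes and the senescent library 25738075 reads in 17592 genes, and 14383 genes with at least 10 reads over both libraries were compared. All 41 mitotic genes were among them, and 40 had at least 100 reads in each library. The exception was Cdc25c, with 106 control and 86 senescent reads. Albumin (Alb), a hepatocyte marker, had 32076 and 2917 reads. After scaling it had the lowest log2 ratio of senescent over control of the 9 hepatocyte markers, -3.23. The median of the 9 was 0.02, with 4 ratios below 0 and 5 above. Keratins of simple epithelia, also among the 9, were high in both libraries (Krt18, 40512 and 60941 reads). Of the macrophage markers, Adgre1 and Clec4f were at 0 in both libraries, Ptprc had 27 and 76 reads, and the 4 markers with at least 10 reads summed to 5627 control and 2035 senescent reads, most of them from Cd14 with 5551 and 1879. Of the fibroblast markers, Col1a1 had 21 reads and 1 read, Col1a2 and Col3a1 were at 0 in both, and every endothelial marker had fewer than 10 reads over both libraries. The part of these markers in the mitotic genes was not tested.

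Promoters of mitotic genes are known for CCAAT boxes, bound by NF-Y, and for the cell cycle homology region with the letters TTTGAA or TTTAAA, where the MuvB complex binds. A RefSeq promoter on GRCm38.p6, from 250 bases before to 50 after the annotated start, was at hand for 34 of the 41 genes. Of their 36 windows, 28 had bases after the start that matched a GENCODE transcript of the gene. The windows of Cdca8 and Kif2c lie wholly inside the gene's bounds in GENCODE, so their starts are uncertain. To show these elements beside the values that follow, 200 bases before and 10 after the start are printed for Ccnb1 (chr13:100786477-100786686), Ccnb2 (chr9:70421545-70421754), Cdk1 (chr10:69352903-69353112), Kif23 (chr9:61946790-61946999), Mki67 (chr7:135716370-135716579) and Nuf2 (chr1:169531455-169531664). All 6 lie on the minus strand and are written 5′ to 3′ on the strand of the gene, with capitals for CCAAT (written ATTGG where it lies on the other strand), and likewise for TTTGAA or its variant with the letters TTTAAA. The genes were chosen after their values were seen, as the B-type cyclin pair with its kinase, the members with the highest and the lowest log2 ratio, and the marker Mki67.
Ccnb1: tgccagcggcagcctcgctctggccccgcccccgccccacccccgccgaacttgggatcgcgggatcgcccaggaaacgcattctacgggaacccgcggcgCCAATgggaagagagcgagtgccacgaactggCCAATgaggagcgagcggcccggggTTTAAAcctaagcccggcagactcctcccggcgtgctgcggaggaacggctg
Ccnb2: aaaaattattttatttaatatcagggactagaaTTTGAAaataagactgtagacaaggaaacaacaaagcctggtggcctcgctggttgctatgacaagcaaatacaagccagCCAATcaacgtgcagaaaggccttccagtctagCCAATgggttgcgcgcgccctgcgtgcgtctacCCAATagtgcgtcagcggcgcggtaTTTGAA
Cdk1: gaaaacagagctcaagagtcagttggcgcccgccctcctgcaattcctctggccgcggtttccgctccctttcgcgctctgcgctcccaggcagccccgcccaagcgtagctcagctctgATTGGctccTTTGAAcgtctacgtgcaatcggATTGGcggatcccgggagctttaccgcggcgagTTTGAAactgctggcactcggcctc
Kif23: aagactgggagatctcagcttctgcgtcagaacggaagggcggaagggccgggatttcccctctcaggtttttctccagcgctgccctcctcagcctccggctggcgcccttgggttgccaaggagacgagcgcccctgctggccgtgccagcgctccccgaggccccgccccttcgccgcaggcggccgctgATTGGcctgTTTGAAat
Mki67: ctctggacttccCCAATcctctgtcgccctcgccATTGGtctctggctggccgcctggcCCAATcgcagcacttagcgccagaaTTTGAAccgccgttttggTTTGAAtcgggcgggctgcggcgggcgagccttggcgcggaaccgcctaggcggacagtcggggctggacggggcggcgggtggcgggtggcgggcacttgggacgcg
Nuf2: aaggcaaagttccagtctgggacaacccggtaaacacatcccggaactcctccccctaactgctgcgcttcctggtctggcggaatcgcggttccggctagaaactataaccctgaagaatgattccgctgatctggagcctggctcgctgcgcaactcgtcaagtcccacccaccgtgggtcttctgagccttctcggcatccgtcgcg

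Ccnb2 held 3 CCAAT boxes at -87, -54 and -21 from the start, each 33 bases from the next, and TTTGAA at -167 and at base 5 after the start. Ccnb1 held CCAAT at -99 and -67, a distance of 32 bases, and TTTAAA at -42. Cdk1 held the complement ATTGG at -80 and -48, again 32 bases apart, and TTTGAA at -71 and -15. Kif23 had ATTGG at -7 and TTTGAA at base 3, and Mki67 had both elements farther from its start, with TTTGAA at -116 and -98. Nuf2 held none of these letters in its whole window. Of the 34 genes with a promoter, 25 (73.5%) held CCAAT on either strand, against 43.1% of the 10394 tested genes with a promoter. TTTGAA or TTTAAA was found on either strand in 26 (76.5%), against 22.7%, and both elements together in 22 (64.7%), against 9.44%. Over all 27025 genes with a promoter the corresponding shares were 41.1%, 30.6% and 12.2%. Ect2 and Prc1 each have 2 starts in RefSeq with overlapping windows, and a place found in both was counted once. CCAAT lay at 58 places, 40 of them within 100 bases before a start, in 23 genes. CCAAT letters on 1 strand at a distance of 31 to 34 bases, a range set after the spacing in these promoters had been seen, occurred in 8 of the 34 genes (23.5%) and in 1.89% of the tested genes. The 8 genes were Aurka, Ccnb1, Ccnb2, Cdca8, Cdk1, Hmmr, Nek2 and Ube2c. Log2 ratios of genes with and without these elements are given after the values of the genes themselves.

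None of the 41 genes reached the threshold of the study's methods, a log2 ratio of senescent over control of 1.5 in either direction. Values were scaled by the trimmed mean of M values (TMM), and each interval is the 95% Clopper-Pearson interval, which covers counting error only. Among all genes tested, 5.6% were at or under -1.5 and 2.71% at or over 1.5 with an interval that left out 0. Among the 8835 genes within the mitotic genes' range of reads the shares were 3.16% and 1.14%, so a count of 0 of 41 is near the background. At a threshold of 1 the count of mitotic genes was still 0 in both directions, beside 9.98% and 5.09% of all genes and 7.12% and 3.15% of the 8835. At a threshold of 0.5, 7 of 41 (17.1%) were lower and 1 (2.44%) was higher in the senescent library, beside 20.4% and 14.8% of all genes. The 7 were Nuf2, Mki67, Bub1, Cenpa, Ccnb2, Bub1b and Mad2l1, and the 1 was Kif23.

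The median log2 ratio of the 41 genes was -0.19, beside -0.02 over all genes tested and -0.02 over the 8835 genes. The genes lay between -0.89 and 0.83. Their interquartile range was 0.475, beside 0.835 for all genes and 0.706 for the 8835. The interval lay wholly below 0 for 21 genes (51.2%, beside 34.6% of all genes), wholly above 0 for 9 (22.0%, beside 34.0%) and held 0 for 11. Among the 8835 genes of the same read range these shares were 39.7% below and 37.4% above. These counts without a threshold were added after the values were seen, and with an assumed biological coefficient of variation of 0.1 between libraries they came to 7 and 1. Those were the genes named above at a threshold of 0.5. The share over all genes was not computed for the widened intervals, so 7 and 1 have no background beside them. The summed reads of the 41 genes were 36555 (control) and 29169 (senescent), or 0.130% (0.129 to 0.132) and 0.113% (0.112 to 0.115) of all reads. These shares are of unscaled reads. After TMM scaling the log2 ratio of the summed reads was -0.10 (-0.12 to -0.07), which is nearer 0 than the shares alone give.

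**Figure D1:**
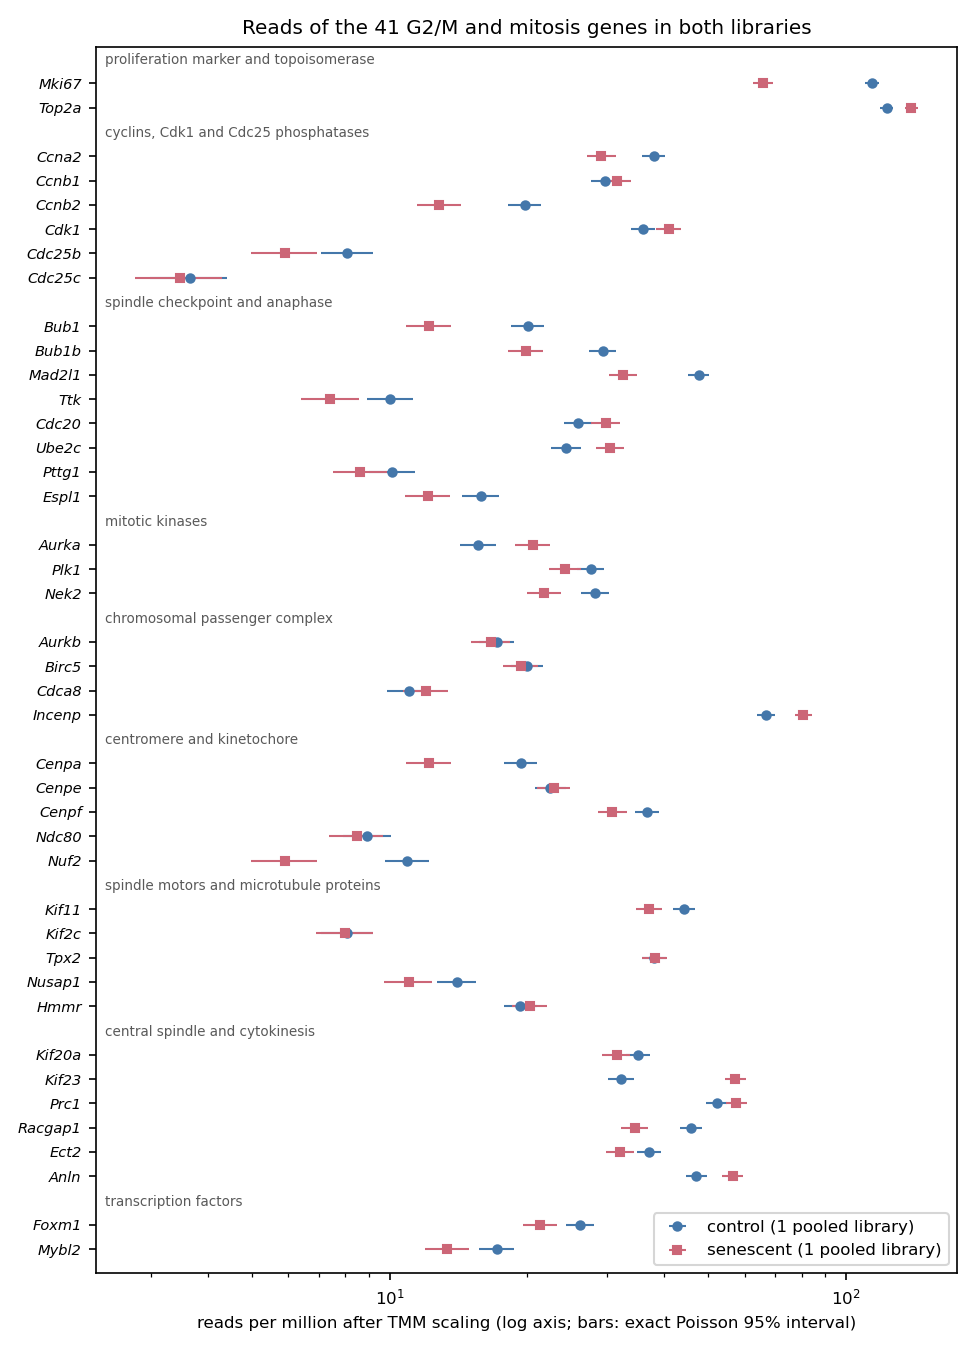
Scaled reads (counts per 1e6 reads after TMM scaling, log axis) of the 41 genes in the control library (circles) and the senescent library (squares), grouped by role, with exact Poisson 95% intervals as bars. Each gene is present in both libraries, with control circles to the right of the squares for 27 genes, Mki67 (114 and 65.9 scaled reads) among them, and to the left for 14, Kif23 (32.2 and 57.2) among them.

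Mki67 and Top2a, both used as marks of dividing cells, had log2 ratios below and above 0. With an assumed coefficient of variation of 0.1, the interval of Mki67 still lay below 0 and that of Top2a held 0. Mki67 coats the surface of mitotic chromosomes. It had 3322 control and 1635 senescent reads and a log2 ratio of -0.79 (-0.88 to -0.71), or 57.7% of the control level. Top2a, the topoisomerase that untangles sister chromatids, had 3576 and 3452 reads and a log2 ratio of 0.18 (0.11 to 0.25). It became 0.07 (0.004 to 0.14) with total-count scaling.

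Among the cyclins and their kinase, Ccnb2 and Ccna2 had log2 ratios below 0 and Cdk1 one above 0, none of them past the threshold. The interval of Ccnb2 still lay below 0 with an assumed coefficient of variation of 0.1, and those of Ccna2 and Cdk1 held 0. Cdk1 had 1045 and 1015 reads and a log2 ratio of 0.19 (0.06 to 0.31). Ccnb1, its main mitotic cyclin, had 861 and 782 reads and 0.09 (-0.05 to 0.23), an interval that held 0. Ccnb2, the Golgi-associated B-type cyclin, had 575 and 319 reads and -0.62 (-0.82 to -0.42), or 65.1% of the control level. Ccna2, the cyclin of S phase and early mitosis, had 1102 and 722 reads and -0.38 (-0.52 to -0.24). Cdc25 phosphatases remove the inhibitory phosphates from Cdk1. Cdc25b had 235 and 146 reads (log2 ratio -0.45, -0.77 to -0.15), and Cdc25c, the gene with the fewest reads, had 106 and 86 (-0.07, -0.50 to 0.35).

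The 4 spindle checkpoint genes among the 41 had log2 ratios below 0, and Cdc20 and Ube2c, which act in anaphase, had ratios above 0, none of them past the threshold. With an assumed coefficient of variation of 0.1, the intervals of Bub1, Bub1b and Mad2l1 still lay below 0, and those of Ttk, Cdc20 and Ube2c held 0. Bub1, the kinase that starts checkpoint assembly at kinetochores, had 584 and 302 reads and a log2 ratio of -0.72 (-0.93 to -0.52). Bub1b, which encodes the checkpoint inhibitor BubR1, had 852 and 493 reads and -0.56 (-0.72 to -0.40). Mad2l1, which holds Cdc20 inactive, had 1385 and 807 reads and -0.55 (-0.68 to -0.42). Ttk, the Mps1 kinase that heads the same pathway, had 292 and 184 reads and -0.43 (-0.71 to -0.17). Their target is Cdc20. It had 754 and 738 reads and a log2 ratio of 0.20 (0.05 to 0.35), which became 0.09 (-0.06 to 0.24) with total-count scaling. Ube2c, the ubiquitin-conjugating enzyme of the anaphase promoting complex, had 709 and 755 reads and 0.32 (0.17 to 0.47). Securin, encoded by Pttg1, had 295 and 214 reads (-0.23, -0.49 to 0.03). Separase (Espl1), the protease that securin blocks and that cuts cohesin, had 461 and 301 reads (-0.38, -0.60 to -0.17).

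The mitotic kinases were spread about 0. Aurka, the centrosome and spindle kinase Aurora A, had 455 and 511 reads and a log2 ratio of 0.40 (0.21 to 0.58), the next highest after Kif23. Plk1, which acts from mitotic entry to cytokinesis, had 803 and 602 reads and -0.19 (-0.34 to -0.03). Nek2, which parts the centrosomes, had 821 and 542 reads and -0.37 (-0.53 to -0.21).

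The chromosomal passenger complex corrects faulty attachments at the centromere and later moves to the midzone. It was the group with the smallest spread among those of more than 2 genes, from -0.05 to 0.27. Aurkb, its kinase, had 500 and 413 reads and a log2 ratio of -0.05 (-0.24 to 0.14). Birc5 (survivin) had 583 and 481 reads and -0.05 (-0.23 to 0.13). Cdca8 (borealin) had 321 and 298 reads and 0.12 (-0.11 to 0.35). The intervals of these 3 subunits held 0. Incenp, the scaffold, had 1943 and 2002 reads and 0.27 (0.18 to 0.36), and its control level per length was the highest of the 41 genes, at 15.4 RPKM, scaled reads per length of exon.

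At the centromere and kinetochore, Nuf2 and Cenpa were the lowest. Nuf2, a subunit of the Ndc80 complex that grips microtubules, had 318 and 146 reads and the lowest log2 ratio of the 41 genes, -0.89 (-1.19 to -0.61), or 54.0% of the control level. Cenpa, the histone H3 variant that marks centromeres, had 565 and 302 reads and -0.67 (-0.88 to -0.47). Ndc80, the direct partner of Nuf2 in the same complex, had 260 and 210 reads and -0.08 (-0.35 to 0.19). A transcribed pseudogene, 2700099C18Rik, shares a stretch of 303 bases with Ndc80 at 95.05% identity and had 93 and 54 reads, and how reads of that stretch were divided is not given in the sources used here. Cenpe, a kinetochore motor, had 655 and 568 reads and 0.02 (-0.14 to 0.19). Cenpf, a large protein of the outer kinetochore, had 1068 and 764 reads and -0.25 (-0.39 to -0.12).

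Among spindle motors and microtubule proteins the log2 ratios ran from -0.35 to 0.07. Kif11, the motor that pushes spindle poles apart, had 1285 and 920 reads (-0.25, -0.38 to -0.13). Nusap1, which bundles microtubules at chromosomes, had 409 and 273 reads (-0.35, -0.58 to -0.13). For 3 genes of the group the interval held 0. Tpx2, the activator of Aurora A on the spindle, had 1106 and 945 reads and a log2 ratio of 0.00 (-0.12 to 0.13). Kif2c, which takes microtubules apart at centromeres, had 235 and 198 reads (-0.02, -0.30 to 0.26). Hmmr, a spindle and hyaluronan-binding protein, had 563 and 503 reads (0.07, -0.11 to 0.24).

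Genes of the central spindle and of cytokinesis held the widest range of any group, 1.24 on the log2 scale. Kif23, the motor of centralspindlin, had 935 control and 1420 senescent reads and a log2 ratio of 0.83 (0.71 to 0.95), or 178% of the control level. No other of the 41 genes was at or over 0.5. Racgap1, the other subunit of centralspindlin, had 1332 and 856 reads and -0.41 (-0.53 to -0.28). Ect2, the exchange factor that Racgap1 recruits, had 1079 and 793 reads and -0.21 (-0.35 to -0.08). Anln (anillin), the scaffold of the contractile ring, had 1368 and 1401 reads and 0.26 (0.16 to 0.37). Prc1, which bundles the midzone microtubules, had 1515 and 1428 reads and 0.14 (0.04 to 0.25). Kif20a, a midzone motor, had 1020 and 780 reads and -0.16 (-0.29 to -0.02).

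Both transcription factors among the 41 genes had log2 ratios below 0, neither past the threshold. Foxm1 had 762 and 530 reads and a log2 ratio of -0.29 (-0.46 to -0.13), and Mybl2, which encodes B-Myb, had 500 and 332 reads and -0.36 (-0.57 to -0.16). Both intervals held 0 with an assumed coefficient of variation of 0.1. Per length, the highest control levels of the 41 genes were those of Incenp (15.4 RPKM), Cdc20 (13.9) and Top2a (13.6), and the lowest that of Cdc25c (0.741). In the senescent library Incenp (18.6), Cdc20 (15.9) and Top2a (15.4) again led.

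**Figure D2:**
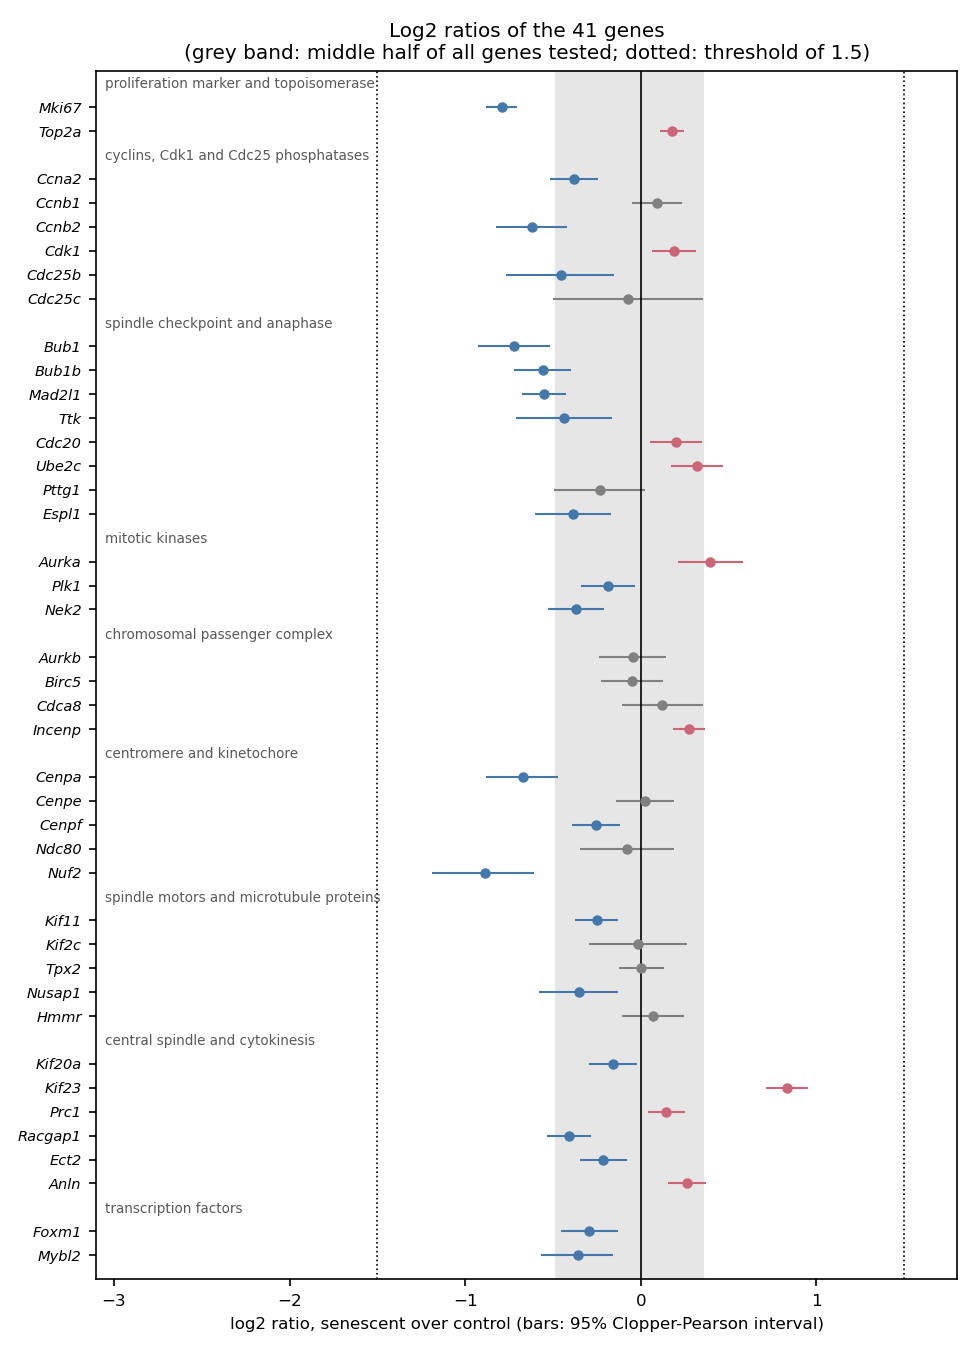
Log2 ratio of senescent over control for each of the 41 genes, with 95% Clopper-Pearson intervals as bars, blue where the interval lies below 0 (21 genes), red above 0 (9) and grey where it holds 0 (11). The grey band spans the quartiles of all genes tested (-0.48 to 0.35) and the dotted lines stand at -1.5 and 1.5, and all 41 points lie between them, from Nuf2 at -0.89 to Kif23 at 0.83.

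The ratios depended in part on the scaling. TMM and the size factors of DESeq2 each gave a median of -0.19 for the 41 genes, and upper-quartile scaling gave -0.22. Scaling by total count moved the median of all genes from -0.02 to -0.12 and theirs to -0.29, with 22 intervals below and 6 above 0. Cdk1, Cdc20 and Prc1 were the genes whose interval above 0 then held 0. Of the genes with an interval on either side of 0, 70.0% were below it with TMM and 78.6% with total count, while over all genes tested this share went from 50.5% to 60.7%. The interval lay below 0 under all 4 scalings for 21 genes and above 0 for 6, which were Top2a, Ube2c, Aurka, Incenp, Kif23 and Anln. The sign of the ratio differed between scalings for Ccnb1, Cenpe, Tpx2 and Hmmr.

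Genes whose products bind each other in 1 complex, or act on each other in 1 step, were set side by side, since the difference of a pair's ratios does not depend on the scaling of the libraries. The 24 pairs, in 9 complexes or steps, were chosen after the values were seen, and Spc25, Bub3 and Kif4 were named for them although the rule for naming genes did not cover them. The exact 95% interval of the difference left out 0 for 15 of the 24 pairs (62.5%). Over all 990 pairs of the 41 genes and the other 4 genes of these complexes it did so for 62.8%, so partners differed about as often as any pair of these genes. The median difference was 0.39 for the partners and 0.36 over all pairs. With an assumed coefficient of variation of 0.1, 8 of the 24 pairs and 232 of the 990 (23.4%) left out 0.

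The widest gap was in centralspindlin, where the log2 ratio of Kif23 exceeded that of Racgap1 by 1.24 (1.07 to 1.42). Within the Ndc80 complex, Ndc80 exceeded Nuf2 by 0.81 (0.42 to 1.21). Spc24, the gene of another subunit, had 257 and 96 reads, so that Ndc80 exceeded it by 1.11 (0.67 to 1.56), while Nuf2 and Spc24 differed by 0.30 (-0.16 to 0.76). Spc25 had 370 and 261 reads and lay 0.62 (0.25 to 1.00) above Nuf2. Spc25 lay 0.92 (0.50 to 1.34) above Spc24, and Ndc80 and Spc25 differed by 0.20 (-0.16 to 0.55). With an assumed coefficient of variation of 0.1, the interval between Spc25 and Nuf2 held 0 as well.

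In the mitotic checkpoint complex, the target Cdc20 exceeded its inhibitors Bub1b by 0.76 (0.54 to 0.98) and Mad2l1 by 0.75 (0.55 to 0.94). Mad2l1 and Bub1b differed by 0.01 (-0.20 to 0.22). Bub3, the partner of BubR1, had 3676 and 3182 reads and lay 0.58 (0.40 to 0.76) above Bub1b. Ccnb1 exceeded Ccnb2 by 0.71 (0.46 to 0.96). Prc1 exceeded Kif4, the motor that it brings to the midzone, by 0.66 (0.42 to 0.91), with 464 and 276 reads for Kif4. Aurka exceeded its activator Tpx2 by 0.39 (0.17 to 0.62).

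Other pairs lay closer. In the chromosomal passenger complex, Incenp exceeded both Aurkb and Birc5 by 0.32, with intervals from 0.11 to 0.53 and from 0.12 to 0.52, and the other 4 of 6 pairs held 0. The intervals of Incenp over Aurkb and over Birc5 also held 0 with an assumed coefficient of variation of 0.1. Aurkb and Birc5 differed by 0.00 (-0.26 to 0.26). Securin and separase differed by 0.15 (-0.19 to 0.49) and the Cdc25 phosphatases by 0.38 (-0.15 to 0.91), an interval that holds gaps as wide as most of those above.

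**Figure D3:**
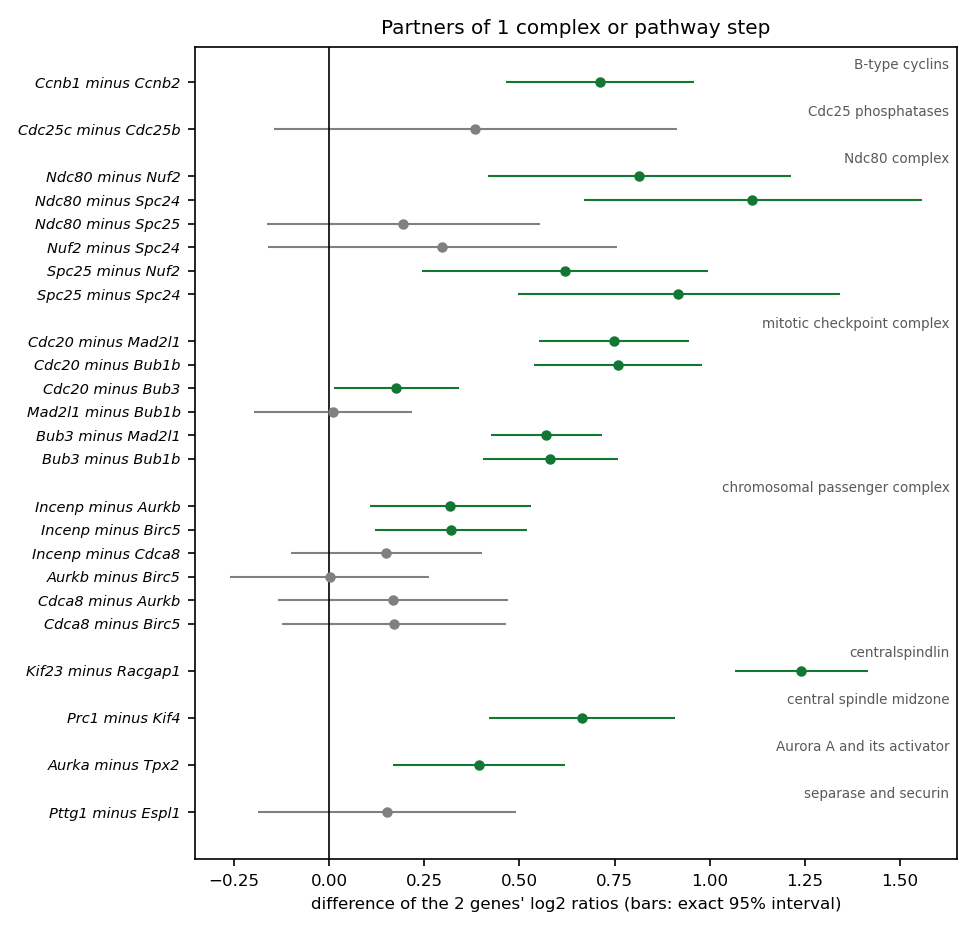
Difference of the log2 ratios of 2 genes of 1 complex or step, the higher minus the lower, for 24 pairs, with exact 95% intervals as bars, green where the interval leaves out 0 (15 pairs) and grey where it holds 0 (9). Kif23 minus Racgap1 lies farthest to the right, at 1.24, and Aurkb minus Birc5 at 0.00.

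A further 131 mitotic genes in 7 lists were compared in the same way. Their median log2 ratio was -0.07, beside -0.02 over all genes tested. Of their intervals, 54 lay below 0, 38 above and 39 held 0. Over all genes tested, 34.6% lay below 0 and 34.0% above. Of the intervals on either side of 0, 58.7% were below it with TMM and 76.1% with total count. The shares over all genes tested were 50.5% and 60.7%. Of the 131 genes, 1 passed the threshold, Ska1 of the spindle and kinetochore associated complex, with 44 and 12 reads and a log2 ratio of -1.57 (-2.70 to -0.70). Over all genes tested, 5.6% passed it in that direction and 2.71% in the other. The 34 further checkpoint and kinetochore genes had the lowest median of the 7 lists, -0.27, with 16 intervals below and 7 above 0. Among them Spc24 was at -1.18 (-1.54 to -0.85), and Cenpm, of the inner kinetochore, had 459 and 183 reads (-1.09, -1.35 to -0.85). Mad1l1, the kinetochore partner of Mad2, had 879 and 942 reads (0.33, 0.20 to 0.46).

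The 17 further G2/M regulators had a median of -0.07. Gtse1, a microtubule protein of G2 that restrains p53, had 734 and 1177 reads and the highest log2 ratio of the 131 genes, 0.91 (0.78 to 1.05). Pkmyt1, the kinase that holds Cdk1 inactive, had 380 and 223 reads (-0.54, -0.78 to -0.30). The 16 genes of the anaphase promoting complex had a median of 0.02. Its subunit genes ranged from Anapc15, with 709 and 300 reads and -1.01 (-1.21 to -0.81), to Cdc27, with 3308 and 3732 reads and 0.40 (0.34 to 0.47).

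Condensin and cohesin genes (20) had a median of -0.03, from Ncapg, a condensin subunit with 483 and 312 reads (-0.40, -0.61 to -0.19), to Wapl, the cohesin releaser with 4716 and 5536 reads (0.46, 0.40 to 0.52). The 20 further spindle genes had a median of 0.01, with Kif22, a chromosome motor, at 616 and 347 reads (-0.60, -0.79 to -0.41). Kpna2, the importin that holds spindle factors such as Tpx2, had 2998 and 3952 reads (0.63, 0.56 to 0.70). The 13 further cytokinesis genes had a median of -0.08, with Depdc1a at 194 and 76 reads (-1.11, -1.52 to -0.73). The 11 genes of the DREAM and MuvB complexes had a median of 0.07. The pocket protein gene Rbl2 had 1372 and 760 reads (-0.62, -0.75 to -0.49), and E2f4, its partner in quiescent cells, had 1605 and 2132 reads (0.64, 0.55 to 0.73).

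The genes of DNA replication and of the G1/S transition, which act before the mitotic genes, had a median log2 ratio of -0.11 over 46 genes. Of their intervals, 20 lay below 0, 10 above and 16 held 0, beside 34.6% below and 34.0% above over all genes tested. Tyms, thymidylate synthase, had 1395 and 592 reads (-1.01, -1.15 to -0.87). Ccnd1, the G1 cyclin D1, had 26692 and 49447 reads (1.12, 1.10 to 1.14). Neither passed the threshold. Inhibitors of cyclin-dependent kinases lay on both sides. Cdkn1a, which encodes p21 and is a p53 target, had 6182 and 9869 reads (0.90, 0.86 to 0.95). Cdkn2a, which encodes p16 and p19ARF, had 437 and 149 reads (-1.32, -1.60 to -1.05). Cdkn2c had 463 and 156 reads (-1.33, -1.61 to -1.08). Cdkn2d had 295 and 83 reads and was past the threshold at -1.59 (-1.97 to -1.24), as was Mdm2, the p53 ligase gene, at 3812 and 9417 reads and 1.53 (1.48 to 1.59).

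**Figure D4:**
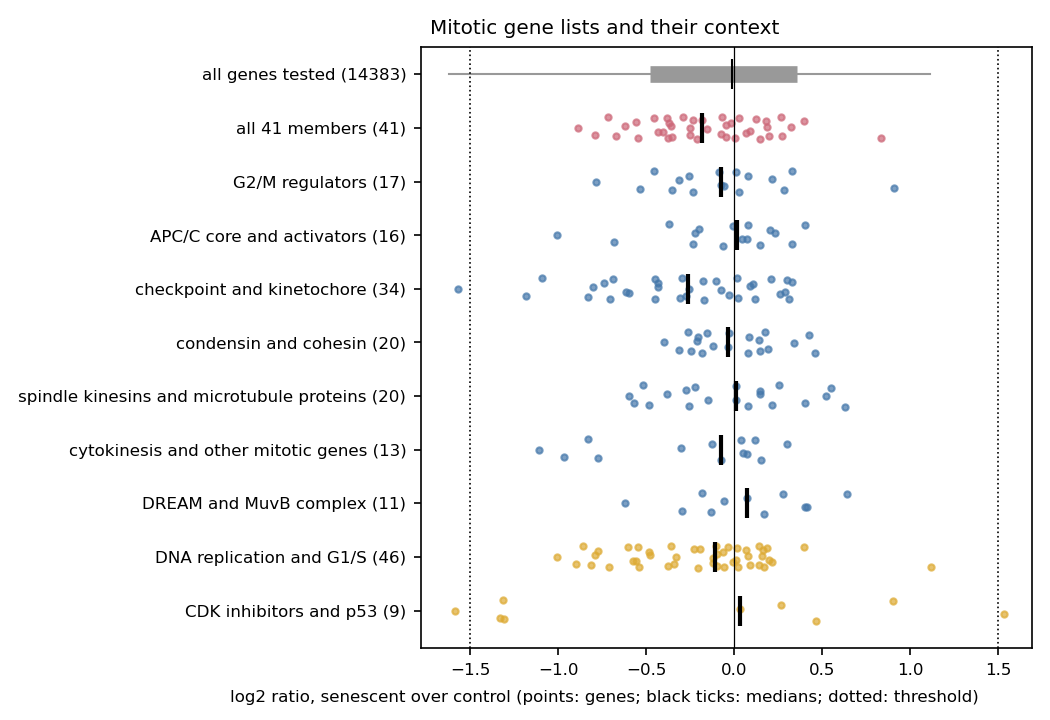
Log2 ratio of senescent over control for the 41 genes (red points), the 7 lists of further mitotic genes (blue) and 2 lists for context (yellow), with the number of genes in parentheses, medians as black ticks and the threshold of 1.5 as dotted lines. The grey bar spans the quartiles of all 14383 genes tested and its thin line percentiles 5 to 95, and the points of the mitotic lists lie mostly within that line, with medians from -0.27 (checkpoint and kinetochore) to 0.07 (DREAM and MuvB complex).

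Among the 34 mitotic genes with a promoter, the median log2 ratio was -0.03 for the 26 that held TTTGAA or TTTAAA and -0.41 for the 8 that held neither. The 8 were Bub1, Cdc25b, Mad2l1, Mybl2, Nek2, Nuf2, Nusap1 and Pttg1. With CCAAT the median was -0.21 (25 genes) and without it -0.23 (9 genes). These are descriptions of chosen genes in 1 pair of libraries, and Mki67 and Cenpa, which held both elements, lay at -0.79 and -0.67. Across the 41 genes Spearman's rank correlation of the log2 ratio was -0.07 with exon length and 0.23 with the control RPKM, beside 0.11 and 0.06 over all genes tested with a length. These genes share the same pair of libraries and are not independent replicates.

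Exons of 7 of the 41 genes overlap those of another gene with at least 10 reads, and the use of strand in counting is not given in the sources used here. The longest overlap was that of Kif20a with Cdc23 on the opposite strand, over 29.3% of the exon bases of Kif20a, and Cdc23 had 1411 and 1047 reads. Ccna2 overlaps Exosc9 (1195 and 1095 reads) over 12.5% of its exon bases and Prc1 overlaps Rccd1 (568 and 237 reads) over 11.1%. The share of each gene's reads that fell in the overlap was not measured, so the values of these genes are uncertain. Near-identical copies of at least 300 bases were found for 6 of the 41 genes, a length set after shorter matches had been seen. Of the 10 copies, Ccnb1-ps, Gm12856, Gm7856 and 2700099C18Rik were among the counted genes, and of these 2700099C18Rik alone had at least 10 reads. The other copies, of Ccnb1, Mad2l1, Mybl2 and Racgap1, had no count of their own, so their reads could not be seen. Gm8416 among them shares 1290 bases with Ccnb1 at 97.3% identity. How reads of such stretches were divided is not given, so the values of those genes are uncertain in this respect.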

How the data were processed

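Poly(A) RNA of control and senescent AML12 cells was sequenced as 1 pooled library per condition. The authors deposited whole-number counts of reads per Ensembl gene, not normalized. Per the labels, the submitters' processing notes name CASAVA, STAR, DESeq2, edgeR and the build mm10, without versions. The counting tool, annotation and strand setting are not given in the sources used here. The 2 columns were assigned to the groups by the initials of the sample titles. Symbols and exon lengths came from GENCODE M21 on GRCm38, and genes without a symbol took 0.113% of control and 0.109% of senescent reads.

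Counts were scaled by TMM in edgeR 4.0.16 (R 4.3.3), with factors of 1.04 and 0.964, and a prior count (1 read, in proportion to library size) went into each ratio. With 1 library per group neither edgeR's nor DESeq2's test could be used. A gene was called at a log2 ratio of 1.5 or more in size, an interval without 0 and at least 10 reads over both libraries. Intervals are exact at 95% and cover counting error only. RPKM used exon-union lengths, which long isoforms can inflate. Pair differences are conditional log2 odds ratios. Alternatives were total-count, upper-quartile and DESeq2 1.42.0 scaling, at least 1 or 100 reads, and a prior count of 0.125 or 5. Further ones were thresholds of 0.5, 1 and 2, and intervals widened for a coefficient of variation between libraries, assumed at 0.1 or 0.4. Overlaps were read from the annotation and copies found with blastn 2.17.0. Python 3.11.15 was used with scipy 1.17.1, pandas 2.3.3, numpy 2.4.6 and, for figures, matplotlib 3.10.9. The method was run on simulated counts with known library factors and planted changes larger than any of the 41 genes showed. That run did not test the scaling or the calling of changes as small as theirs. Any of the 41 genes could be named, and of every other list up to 6 genes with at least 100 reads and the lowest or highest log2 ratios, and those past the threshold. The 41 genes and all lists were chosen with earlier results of these data known. Values are given for some of the marker genes only.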

Additional observations from a re-analysis of the deposited data

How the results depend on the processing

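The count of 0 mitotic genes past the threshold in each direction did not depend on the scaling or the prior count. It was still 0 at a threshold of 1, and a threshold of 0.5 gave 7 lower and 1 higher. A threshold of 2, the other filters on reads and the assumed variation could not add to a count of 0, since all 41 genes had passed the filter. The median log2 ratio of the 41 genes, -0.19, was -0.29 with total-count and -0.22 with upper-quartile scaling. With an assumed coefficient of variation of 0.1, the 21 intervals below and 9 above 0 became 7 and 1, and the 15 pairs without 0 became 8, an alternative for the pairs chosen after seeing the data. At 0.4 all of these were 0. For single genes without a threshold, the share over all genes was not computed with widened intervals. Of the further mitotic genes, 1 was lower, and 0 were at 100 reads, with a prior count of 5, at a threshold of 2 or with a variation of 0.4, while a threshold of 1 gave 5 and 0.5 gave 22 lower and 5 higher. Of all genes, 805 were lower and 390 higher, 395 and 141 with at least 100 reads, 1435 and 732 at a threshold of 1, 2933 and 2135 at 0.5, and 460 and 219 at 2. The count of higher genes was also 259 with a prior count of 5 and 243 with a variation of 0.4. Single log2 ratios stayed within their interval for 37 of the 41 genes with total-count scaling. They did so for all 41 with the other scalings and prior counts. The filter on reads, the threshold and the assumed variation do not enter a log2 ratio and could not move it. No paired analysis was possible because each group has 1 library. Variation between cultures cannot be estimated from pooled RNA.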
